A study of Danio rerio with 15 samples.

Results

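Zebrafish embryos injected with a guide RNA against ncapg2 together with the Cas9 nuclease were compared with embryos injected with the same guide RNA alone. The comparison used 10 of the 15 libraries of the series, the 5 labelled guide RNA plus Cas9 and the 5 labelled guide RNA, chosen by those labels and not by a measured value. All embryos came from matings of wild-type adults and were reared at 28 °C to 2 days post-fertilization, when heads were collected. Each library pooled 20 embryos. Both groups carried the guide RNA and differed in Cas9. Libraries were sequenced 5 to a lane. Which of them shared a lane was not known here, so an effect of lane on the comparison was not tested. Because a group given Cas9 without this guide was not analysed here, effects of editing ncapg2 and effects of Cas9 itself cannot be told apart. The injected embryos themselves were sampled, and the share of edited gene copies was not measured here. The series calls the libraries biological replicates, and p-values therefore measure the spread between pools. The guide is numbered differently in the titles (gRNA3) and in the treatment labels (gRNA1), and the 5 libraries of dye-injected embryos entered no comparison, serving only in an alternative fit over all 15 libraries. Libraries are named by their column headings, S11 to S15 for guide RNA plus Cas9 and S6 to S10 for guide RNA alone.

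NCAPG2 belongs to condensin II, a ring-shaped complex that folds and stiffens chromosomes as cells enter mitosis. The complex joins the ATPases SMC2 and SMC4, which condensin I also uses, to a kleisin and to a pair of HEAT-repeat subunits, one of which is NCAPG2. Mutations in human condensin genes are known from small-head syndromes, and errors of chromosome segregation are known to activate p53 and cell death in neural progenitors. The study asked what losing NCAPG2 does to gene expression in the developing head.

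Each value is a normalized count, a gene's read count divided by the size factor of its library. Reads per library ranged from 41.58 to 48.51 M (M, mega) for guide RNA plus Cas9 and from 39.79 to 49.3 M for guide RNA alone. Fold changes are differences of log2(normalized count + 1), guide RNA plus Cas9 minus guide RNA alone, fitted with limma over 21590 genes, and a gene was called at a Benjamini-Hochberg adjusted p under 0.05. The limma fit was repeated with libraries joined by column position (S11 with S6, S12 with S7, S13 with S8, S14 with S9, S15 with S10). These pairs were set for this comparison by column order, and libraries at the same position varied together. The repeated fit is called the paired fit, and the 95% intervals of both fits are used as limits on small shifts. An interval is said to lie within 25% where it holds no rise above 25% and no fall beyond the same ratio.

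Transcripts of the targeted gene, ncapg2 (ENSDARG00000060023), fell with Cas9. Its normalized counts were 423, 407, 373, 505 and 432 in the Cas9 libraries S11 to S15, against 988, 979, 901, 809 and 885 in the guide libraries S6 to S10. The groups were well apart, and the highest Cas9 library, S14, and the lowest guide library, S9, stood at the same column position. The mean was 428 ± 48.4 with guide RNA plus Cas9 and 912 ± 73.7 with guide RNA alone (SD, n = 5 each). The log2 fold change was -1.09 ± 0.08 (SE), with a 95% interval from -1.28 to -0.91 and a limma adjusted p of 0.00032. A two-sided exact permutation test gave p = 0.0079, the smallest that the 252 regroupings of 5 against 5 allow. Within the column pairs the log2 differences were -1.22, -1.26, -1.27, -0.68 and -1.03. With single libraries left out the fold change lay between -1.15 and -1.05.

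In the unpaired limma fit 1 of 21590 genes (0.00463%) was called, and that gene was ncapg2. The unadjusted p was under 0.05 for 198 genes (0.917%), 76 higher with Cas9 (0.352%) and 122 lower (0.565%). That share was below the 0.05 that well-calibrated p-values give where nothing differs, so the unpaired p-values ran conservative. A gene not called there is thus not shown to be unchanged. On whole reads recovered from the values, edgeR and DESeq2 also called 1 gene each, with 187 and 181 genes at an unadjusted p under 0.05. The paired limma fit called 3 genes (0.0139%), all lower with Cas9, and had 983 genes at an unadjusted p under 0.05 (4.55%), 465 higher (2.15%) and 518 lower (2.4%). The groups did not overlap for 50 genes (0.232%), 21 with Cas9 higher (0.0973%) and 29 with Cas9 lower (0.134%). All 5 column pairs differed in the same direction for 1378 genes (6.38%), in 677 with Cas9 higher (3.14%) and in 701 with Cas9 lower (3.25%). These shares are the background for the gene lists that follow, 41 in number with 1054 different genes tested.

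None of the other 7 condensin genes was called, and the 95% interval of each lay within 25% either way. Their median log2 fold change in the unpaired fit was 0.00, as was the median over all genes tested. The kleisin gene of condensin II, ncaph2, had 775 ± 46.4 with guide RNA plus Cas9 and 817 ± 45.7 with guide RNA alone (SD, n = 5 each), and its interval reached from -0.21 to 0.06 (log2). ncapd3, the other HEAT-repeat subunit of condensin II, had a log2 fold change between -0.16 and 0.13. The shared ATPase genes smc2 and smc4 had intervals from -0.14 to 0.13 and from -0.09 to 0.20. Loss of ncapg2 transcript to 46.9% of its level with the guide alone thus stood beside partner transcripts whose intervals lay within 25%.

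**Figure D1:**
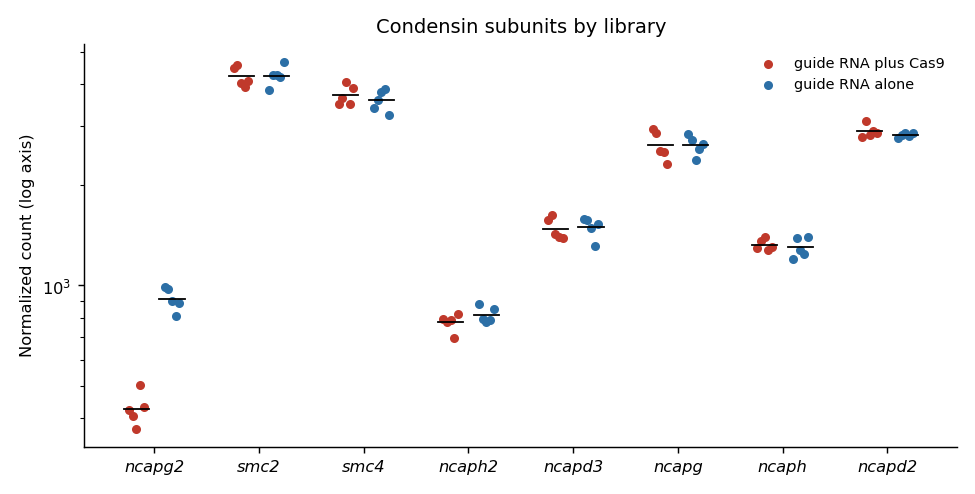
Normalized count (log axis) of 8 condensin genes in each library, guide RNA plus Cas9 in red at the left for each gene and guide RNA alone in blue; points are libraries and bars are means. The groups are apart for ncapg2 (373 to 505 with Cas9 and 809 to 988 with the guide alone) and overlap for the other 7 genes.

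The 3 nearest protein-coding genes on each side of ncapg2 in the gene order of RefSeq assembly GRCz12tu were read as a check of the neighbourhood. On one side lie si:ch73-174h16.4, si:ch73-174h16.5 and wdr34, and on the other ptprn2, which encodes a receptor-type phosphatase of secretory granules, dnajb6b, a co-chaperone gene, and ube3c, a ubiquitin ligase gene. None of the 6 was called, and their log2 fold changes lay between -0.09 for wdr34 and 0.10 for si:ch73-174h16.5, the least abundant. Of the 2 direct neighbours, ptprn2 averaged 5194 ± 541 with guide RNA plus Cas9 and 5182 ± 605 with guide RNA alone (SD, n = 5 each). The other, wdr34, averaged 274 ± 24.3 with guide RNA plus Cas9 and 290 ± 20.0 with guide RNA alone (SD, n = 5 each).

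Cohesin, the related complex that holds sister chromatids together, was described with its loaders and with SMC5/6. No gene of its 19 was called, all 19 intervals lay within 25%, and 17 had a positive log2 fold change with a median of 0.03. The range ran from -0.02 for smc5 to 0.10 for mau2, a loader subunit. The cohesin core gene rad21a was at 0.05 ± 0.05 (SE), smc1a at -0.01 ± 0.08 and the loader gene nipbla at 0.06 ± 0.09. The list's median lay between 0.00 and 0.05 when single libraries were left out, and was just below 0 without S6.

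Known p53 target genes gave small values in both directions, and none was called. mdm2, a p53 target that encodes the ubiquitin ligase acting on p53, had 1321, 1407, 1251, 1265 and 1193 in S11 to S15, against 1240, 1127, 1090, 1160 and 1190 in S6 to S10. All 5 pairs were higher with Cas9 while the groups overlapped. The log2 fold change of mdm2 was 0.15 ± 0.06 (SE), with an interval from 0.02 to 0.27.

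cdkn1a, the p53 target that encodes the cell cycle inhibitor p21, had 251, 221, 194, 167 and 255 in S11 to S15, against 220, 179, 155, 151 and 214 in S6 to S10. Its values differed more between column positions than between groups, and each Cas9 library was above its partner. For cdkn1a the log2 fold change was 0.24 ± 0.14 (SE), with an interval of 0.95-fold to 1.47-fold unpaired and of 1.06-fold to 1.32-fold in the paired fit. ccng1, the cyclin G1 gene and another p53 target, had 0.13 ± 0.07 (SE), higher with Cas9 in 4 of 5 pairs. fas, which encodes a death receptor and is also a known p53 target, ran the other way at -0.34 ± 0.16 (SE), with the lower value with Cas9 in 5 of 5 pairs.

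Over the whole list of p53 pathway genes 8 of 19 genes had a positive log2 fold change and the median was -0.01. At an unadjusted p under 0.05, 2 genes, mdm2 among them, were higher and 0 lower in the unpaired limma fit. The shares over all genes were 0.352% and 0.565%. In the paired limma fit 4 were higher and 1 lower, beside 2.15% and 2.4% of all genes, with no gene called in either fit. All 19 intervals lay within 2-fold and 18 within 1.5-fold. With single libraries left out, the log2 fold change of mdm2 stayed between 0.11 and 0.17 and that of cdkn1a between 0.18 and 0.33.

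**Figure D2:**
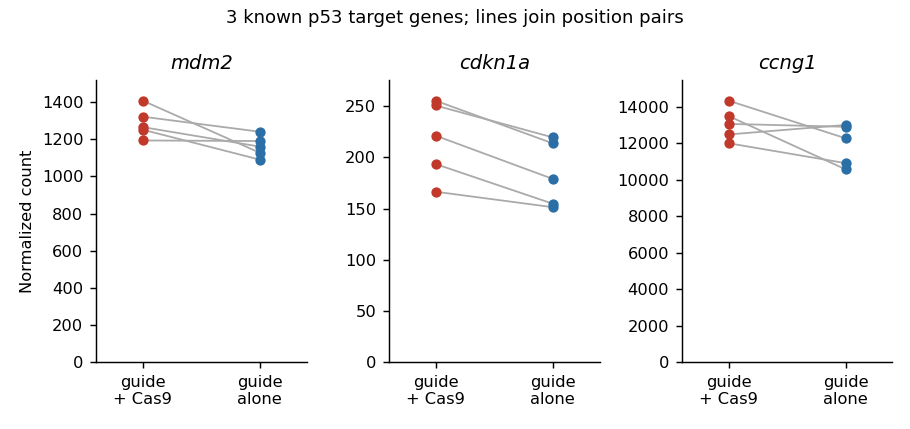
Normalized count of mdm2, cdkn1a and ccng1 in each library, guide RNA plus Cas9 in red at the left and guide RNA alone in blue at the right, on axes that start at 0; lines join libraries at the same column position. Lines slope down to the guide library in 5 of 5 pairs for mdm2 and cdkn1a and in 4 of 5 pairs for ccng1, and none of the genes was called. They belong to a list in which 8 of 19 genes had a positive log2 fold change and 11 a negative one, with a median of -0.01.

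Genes of the cell death machinery showed no call, and all 19 intervals lay within 1.5-fold. Their median log2 fold change was -0.03, with 7 of 19 positive. The executioner caspase gene casp3a averaged 5256 ± 233 with guide RNA plus Cas9 and 5494 ± 265 with guide RNA alone (SD, n = 5 each). The initiator gene casp9 was at -0.06 ± 0.07 (SE) and apaf1, the scaffold of the apoptosome, at 0.00 ± 0.05. bik, a pro-apoptotic member of the Bcl2 family, was at -0.17 ± 0.09, and bida, another one, at -0.10 ± 0.07.

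DNA repair and replication genes were tightly limited as well. None of 21 repair genes was called, 19 intervals lay within 25% and all 21 within 1.5-fold. atm, the kinase that signals double-strand breaks, was at -0.05 ± 0.09 (SE), and parp1 at 0.01 ± 0.06. mre11a, which encodes the nuclease of the break-sensing complex, ran lower with Cas9 in 5 of 5 pairs at -0.17 ± 0.11, and its partner gene nbn was at -0.09 ± 0.07.

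Of 36 replication genes none was called, 8 had a positive log2 fold change and the median was -0.03. The helicase genes mcm3 and mcm5 were at 0.00 ± 0.05 (SE) and -0.07 ± 0.06, and pcna, the sliding clamp gene, at -0.03 ± 0.07. gins3, a subunit of the replicative helicase, was at -0.17 ± 0.10. orc2, an origin recognition gene, stood out with 234, 205, 265, 200 and 258 in S11 to S15, against 213, 167, 208, 161 and 224 in S6 to S10. Its groups overlapped, every Cas9 library was above its partner, and its log2 fold change was 0.26 ± 0.12 (SE).

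Mitosis genes, which act with condensin II, had tight limits. None of 44 was called and all 44 intervals lay within 25% either way. Positive log2 fold changes were found for 33 of 44, with a median of 0.04, which stayed between 0.02 and 0.05 with single libraries left out. cdk1, the mitotic kinase gene, averaged 1903 ± 112 with guide RNA plus Cas9 and 1912 ± 169 with guide RNA alone (SD, n = 5 each). Its cyclin gene ccnb1 was at 0.04 ± 0.06 (SE), the kinase genes aurkb and plk1 each at 0.05 ± 0.05, the separase gene espl1 at 0.07 ± 0.05 and the securin gene pttg1 at -0.12 ± 0.09.

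Centrosome and spindle genes known from primary microcephaly were also uncalled. Of 19 tested, 15 had a positive log2 fold change with a median of 0.03, and 18 intervals lay within 25%. The spindle pole genes aspm and wdr62 were at 0.07 ± 0.07 (SE) and 0.10 ± 0.06, and zgc:55582, a RefSeq synonym match to cdk5rap2 of the centrosome, at 0.02 ± 0.06. A broader list of 49 genes, those whose annotated human phenotypes in the authors' deposited tables name microcephaly, had a median of 0.03 with 33 positive, and all 49 intervals lay within 2-fold and 45 within 25%.

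The head label was checked against brain region genes, of which all 30 passed the filter, with a median log2 fold change of 0.04 and 20 positive. This median was -0.02 without S6. foxg1a, a forebrain factor gene, averaged 1712 ± 105 with guide RNA plus Cas9 and 1719 ± 197 with guide RNA alone (SD, n = 5 each), while otx2, of the forebrain and midbrain, was at 0.11 ± 0.06 (log2, SE) and egr2b, of the hindbrain, at -0.04 ± 0.08. Posterior hox genes, which mark trunk and tail, were near the detection filter, and 5 of 11 found in the tables passed it. Their score ran from -0.73 in S14 to 0.92 in S11. Of other lists from outside the head, 16 of 19 trunk organ, 21 of 22 heart and 33 of 36 yolk and liver genes passed. The check therefore does not show that the samples were free of other tissue. In bulk tissue, fewer cells of a type and less RNA per cell cannot be told apart, which holds for every tissue list below.

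Neural progenitor genes were close between the groups. None of 32 was called, all 32 intervals lay within 1.5-fold and 25 within 25%, and the median log2 fold change was 0.01 with 19 positive. sox2, the progenitor factor gene, was at 0.03 ± 0.05 (SE), sox3 at 0.03 ± 0.06, pax6a at 0.09 ± 0.08 and the radial glia gene fabp7a at -0.01 ± 0.06. sox9b, a factor gene of radial and Müller glia, was highest in the list at 0.21 ± 0.11, with 2004, 1458, 2251, 1873 and 1628 in S11 to S15, against 1523, 1457, 1829, 1650 and 1465 in S6 to S10. The pair of S12 and S7 was level, and the other 4 pairs were higher with Cas9.

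Proneural factors and Notch ligands followed the same pattern at small size. Of 24 tested none was called, 19 were positive, the median log2 fold change was 0.03 and all 24 intervals lay within 1.5-fold. The list score of a library averages, over the members, how far each log2 value lies from that member's average in the 10 libraries, and it was higher with Cas9 in all 5 pairs by 0.01 to 0.07. Of the 41 lists, 4 had a score that differed in the same direction in all 5 pairs. Neural progenitors and condensin, which includes ncapg2, were among them. eomesa, a factor gene of newborn forebrain neurons, was at 0.19 ± 0.11 (SE), neurog1 at 0.09 ± 0.09, ascl1a at -0.02 ± 0.06, atoh7, needed for retinal ganglion cells, at -0.06 ± 0.10, and neurod1 at 0.06 ± 0.11.

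Genes of differentiated neurons and glia were likewise uncalled. Over 28 neuron genes the median was 0.04 (log2), 21 were positive, and all intervals lay within 1.5-fold. This median was -0.004 without S6. The gene of the neuronal RNA-binding protein elavl3 was at 0.05 ± 0.08 (SE), and snap25a, a synaptic fusion gene, at -0.03 ± 0.05. Transmitter genes had a median of 0.00 over 21. slc17a6b, a glutamate carrier gene of excitatory neurons, and gad1b, which encodes a GABA-synthesizing enzyme, were both within 0.01 of 0 (log2), and chata, which encodes the enzyme that makes acetylcholine, was at -0.12 ± 0.06, with the lower value with Cas9 in 5 of 5 pairs. Of 15 glial genes 6 were positive with a median of -0.04, and the myelin genes plp1a and mbpa were at -0.13 ± 0.06 and -0.14 ± 0.08 while the lineage genes olig2 and sox10 were at 0.04 ± 0.08 and 0.11 ± 0.07.

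Lens and pigment lists had the highest medians, and most unpaired intervals of their genes covered 0. For lens, 26 of 29 genes had a positive log2 fold change, beside 10989 of 21590 over all genes, and the median was 0.12. At an unadjusted p under 0.05 limma listed 2 higher and 0 lower unpaired, and 14 higher and 0 lower in the paired fit, beside 0.352% and 2.15% of all genes higher, and no lens gene was called in either fit. Lens genes vary together between libraries, so their counts are not separate observations. The lens score was -0.05, 0.09, 0.01, 0.24 and 0.01 in S11 to S15, against -0.29, 0.12, -0.06, 0.04 and -0.11 in S6 to S10.

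The groups overlapped in the lens score, the guide library S6 was far the lowest and the Cas9 library S14 the highest. Without S6 the median over the list was 0.05, and without S7 it was 0.18. S6 also had the highest heat shock (0.42) and yolk and liver (2.06) scores of the guide libraries, and their part in the lens values was not tested. crybb1, a beta crystallin gene, had 63510, 71510, 76140, 82710 and 67140 in S11 to S15, against 45870, 72680, 61680, 70360 and 44910 in S6 to S10. Its interval reached from 1.004-fold to 1.54-fold, and S7 stood above S12 in the pair that went the other way. The gene of alpha crystallin, cryaa, was higher with Cas9 in 5 of 5 pairs at 0.19 ± 0.12 (SE), mipb, a lens water channel gene, was at 0.12 ± 0.10, and cx44.1, a lens gap junction gene, at 0.16 ± 0.07.

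Photoreceptor genes were positive in 31 of 38 with a median log2 fold change of 0.08, which lay between 0.05 and 0.10 with single libraries left out. Unpaired, 35 of 38 intervals lay within 1.5-fold. The paired limma fit had 11 higher and 1 lower at an unadjusted p under 0.05, beside 2.15% and 2.4% of all genes. None of them was called, and genes read in the same libraries are not separate observations. The photoreceptor score overlapped between the groups. It was higher with Cas9 in 4 of 5 pairs, with pair differences from -0.04 to 0.28. crx, the factor gene that drives photoreceptor genes, had 7316, 6082, 8573, 7736 and 7526 in S11 to S15, against 5353, 5906, 7225, 7357 and 5499 in S6 to S10. Each Cas9 library was above its partner and the groups overlapped, with a log2 fold change of 0.25 ± 0.11 (SE). nrl, a rod-determining factor gene, was highest in the list at 0.31 ± 0.15, and rho, the rod opsin gene, was at 0.29 ± 0.17. The cone transducin gene gnat2 was at 0.02 ± 0.07 with an interval within 1.14-fold. Rod and cone genes were not compared as groups, so these single genes do not set them apart.

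Other retinal genes were positive in 22 of 26, with a median log2 fold change of 0.06 and a score higher with Cas9 in all 5 pairs by 0.02 to 0.17. The median was 0.02 without S6, the library with the lowest retinal score. The score had the same direction in all pairs for 4 of the 41 lists, and the groups overlapped in the retinal score. vsx1, a bipolar cell factor gene, was at 0.07 ± 0.10 (SE), the progenitor gene rx1 at 0.15 ± 0.13, and the ganglion cell gene pou4f2 at 0.08 ± 0.08. bhlhe22, an amacrine and bipolar factor gene, averaged 2226 ± 75.1 with guide RNA plus Cas9 and 2087 ± 70.0 with guide RNA alone (SD, n = 5 each).

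In pigment cells and pigment epithelium the median log2 fold change was 0.11 with 18 of 22 genes positive, and the list was less tightly limited, with 2 intervals within 25%, 16 within 1.5-fold and 22 within 2-fold. tyr, which encodes the rate-limiting enzyme of melanin synthesis, had 908, 780, 753, 949 and 754 in S11 to S15, against 576, 768, 777, 744 and 614 in S6 to S10. The groups overlapped, and the lowest value was that of S6. The log2 fold change of tyr was 0.26 ± 0.10 (SE), that of tyrp1a, another melanin synthesis gene, 0.26 ± 0.09, and that of rlbp1b, which encodes a retinaldehyde-binding protein and was highest in the list, 0.45 ± 0.20. The melanin pathway genes dct and tyrp1b were at 0.18 ± 0.13 and 0.13 ± 0.11, and pmela, of the melanosome matrix, at 0.20 ± 0.11. The median of the list lay between 0.09 without S8 and 0.21 without S13.

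**Figure D3:**
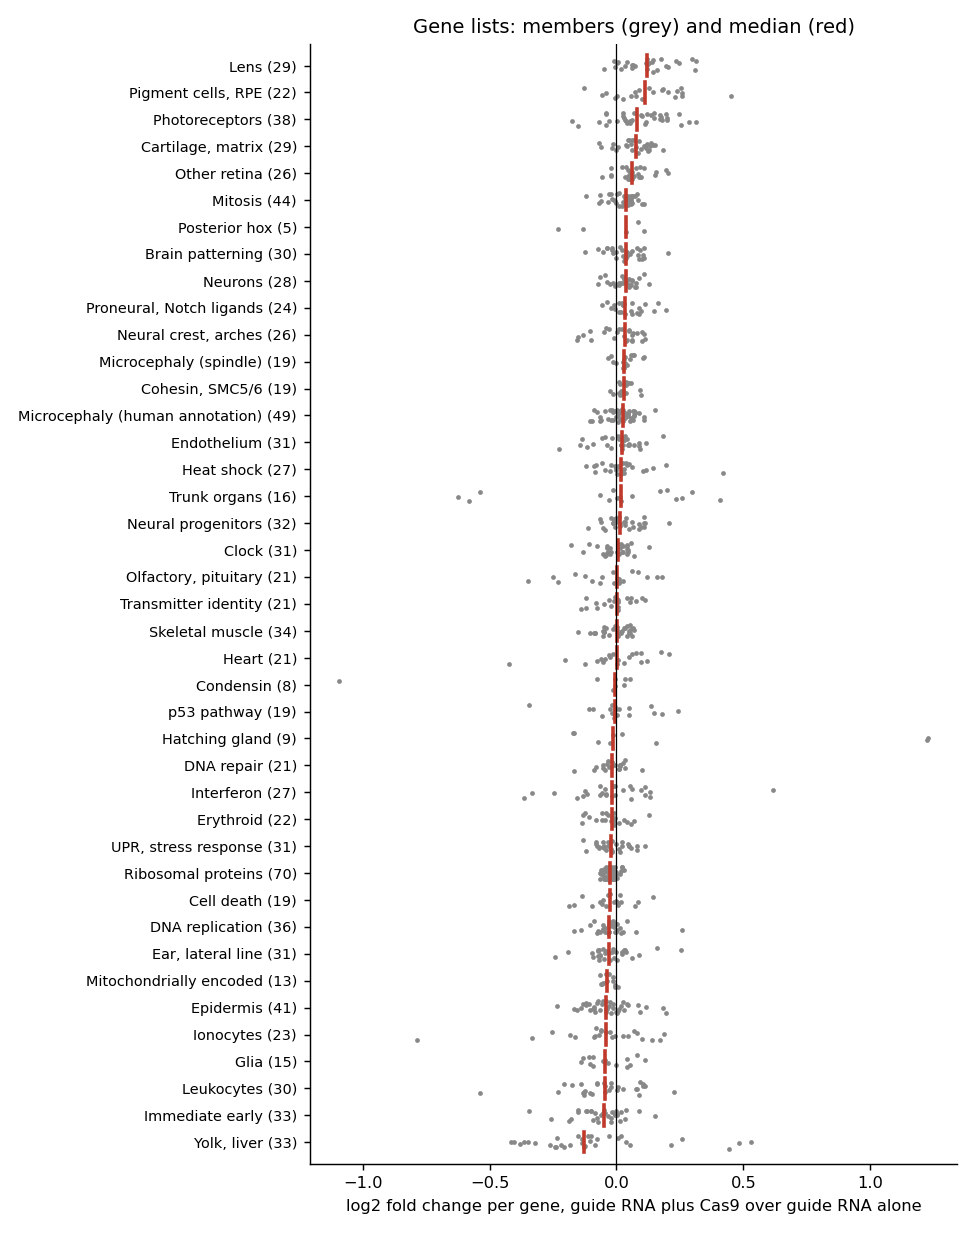
Log2 fold change of each tested gene (grey points) in 41 gene lists, guide RNA plus Cas9 over guide RNA alone, with the median of each list as a red bar and the number of genes tested in brackets. In the unpaired limma fit shown, medians run from -0.13 (yolk and liver, 0.30 in edgeR and DESeq2) to 0.12 (lens), and 35 of 41 lie within 0.05 of 0; the lone point near -1.09 in the condensin row is ncapg2.

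Cartilage and matrix genes were positive in 25 of 29 with a median log2 fold change of 0.08, which was 0.04 without S6. None was called and all 29 intervals lay within 1.5-fold. acana, the aggrecan gene of cartilage matrix, was at 0.19 ± 0.10 (SE), col2a1a, the main cartilage collagen gene, at 0.15 ± 0.15, matn1 at 0.11 ± 0.12, and epyc at 0.11 ± 0.06 with the higher value with Cas9 in 5 of 5 pairs. Regulators of the neural crest and pharyngeal arches had a median of 0.03 over 26 genes, with sox9a, the cartilage master gene, at 0.11 ± 0.08 and hand2 at 0.06 ± 0.09.

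Epidermis and junction genes ran slightly the other way. None of 41 was called, 28 had a negative log2 fold change, the median was -0.04, and all 41 intervals lay within 1.5-fold. In the paired limma fit 9 were lower and 2 higher at an unadjusted p under 0.05, beside 2.4% and 2.15% of all genes. The epidermis score overlapped between the groups and was higher with Cas9 in 2 of 5 pairs, with pair differences from -0.09 to 0.02. The counts of lower genes thus do not stand for a fall in every pair, and the genes are not separate observations. epcam, an epithelial adhesion gene, had 8372, 8610, 7374, 7445 and 8410 in S11 to S15, against 9907, 9155, 8250, 7803 and 8951 in S6 to S10. Each Cas9 library was below its partner by a small step, and the log2 fold change of epcam was -0.13 ± 0.07 (SE).

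The envoplakin gene evpla was lower with Cas9 in 5 of 5 pairs at -0.15 ± 0.07 (SE), and the secreted epithelial gene agr1 was at -0.12 ± 0.06. The keratin genes krt4 and krt5, among the most abundant transcripts, were at 0.04 ± 0.07 and -0.06 ± 0.09, and krt15 was highest in the list at 0.19 ± 0.09. The junction gene cdh1, E-cadherin, was at -0.04 ± 0.05. Omitting single libraries kept the median of the epidermis list between -0.06 and -0.02.

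Ionocytes are skin cells that exchange ions and ammonium with the water, and their list held a gene called in the paired fit. rhcgl1 (ENSDARG00000007080), which encodes an Rh-family carrier of ammonium, had 412, 77.8, 96.8, 91.8 and 94.0 in S11 to S15, against 867, 94.8, 206, 161 and 151 in S6 to S10. S11 and S6 stood far above the other libraries of their groups, the groups overlapped, and each Cas9 library was below its partner. The log2 fold change was -0.78, with an interval from -2.28 to 0.71 unpaired and from -1.02 to -0.55 paired, and the adjusted p was 0.026 in the paired limma fit and 0.99997 in the unpaired one. The call was lost when the pair S11 and S6 (adjusted p = 0.37 by limma) or any other pair but S12 and S7 was left out (0.13 to 0.21). The unpaired value was -0.28 without S6 and -1.22 without S11.

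The related transporter gene rhcgb was at -0.33 ± 0.19 (SE), lower with Cas9 in 4 of 5 pairs, and the ionocyte factor genes foxi3a and foxi3b were at 0.14 ± 0.13 and 0.03 ± 0.07. atp1b1b, a sodium pump subunit gene, was at -0.09 ± 0.05. Of 23 ionocyte genes 15 had a negative log2 fold change, with a median of -0.04. The ionocyte score was highest in S11 among the Cas9 libraries, at 0.16, and in S6 among the guide libraries, at 0.21.

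The third gene called in the paired fit was zgc:165423 (ENSDARG00000052905), known here by its clone-style name alone. It had 3759, 2239, 2768, 3205 and 3629 in S11 to S15, against 6546, 3521, 4124, 3906 and 4560 in S6 to S10. The groups overlapped and each Cas9 library was below its partner. The log2 fold change was -0.53, with an adjusted p of 0.026 in the paired limma fit and 0.99997 unpaired, and the call was lost without S11 and S6 (adjusted p = 0.087 by limma) or without S13 and S8 (adjusted p = 0.25 by limma).

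In the inner ear and lateral line list none of 31 genes was called and the median log2 fold change was -0.03. gfi1ab, a zinc finger factor gene, had 177, 196, 206, 175 and 200 in S11 to S15, against 148, 149, 157, 168 and 178 in S6 to S10. The groups overlapped by a narrow margin, since S10 stood above S11 and S14. Its log2 fold change was 0.25 ± 0.09 (SE), while its paralog gfi1aa was at -0.24 ± 0.14, and the hair cell genes atoh1a and myo7aa were at 0.03 ± 0.13 and 0.02 ± 0.08.

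Among olfactory and pituitary genes, gh1, the growth hormone gene, had groups that did not overlap. It had 376, 442, 423, 448 and 444 in S11 to S15, against 475, 549, 508, 463 and 511 in S6 to S10. Every Cas9 library was below every guide library, with means of 427 ± 30.1 with guide RNA plus Cas9 and 501 ± 33.7 with guide RNA alone (SD, n = 5 each). For gh1 the log2 fold change was -0.23 ± 0.07 (SE), its interval ran from 0.76-fold to 0.95-fold, and it was not called (limma adjusted p = 0.99997 unpaired and 0.82 paired). The other hormone genes prl and pomca were at 0.16 ± 0.12 and -0.06 ± 0.10, and tbx19, a factor gene of pomca-expressing cells, at -0.35 ± 0.16 and low level. Of the 21 genes of this list 11 were positive and the median was 0.00.

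The 31 vessel genes had a median of 0.02 (log2), all with intervals within 1.5-fold. kdrl, the endothelial VEGF receptor gene, was at 0.12 ± 0.07 (SE), cdh5 at 0.02 ± 0.05, the junction gene esama at 0.18 ± 0.08 and the lymphatic receptor gene lyve1b at -0.22 ± 0.11. Skeletal muscle genes had a median of 0.00 over 34, with acta1b at 0.00 ± 0.08 and myod1 at -0.05 ± 0.08. Leukocyte genes had a median of -0.05 over 30, with the macrophage gene mpeg1.1 at -0.13 ± 0.13 and the neutrophil genes mpx and npsn at -0.18 ± 0.15 and -0.21 ± 0.10.

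RNA sensing, interferon and inflammation genes were listed because injected RNA can be read as foreign. None of 27 was called and the median log2 fold change was -0.02. isg15 and rsad2, classical interferon targets, were near the detection filter, with 12.3 ± 6.17 and 9.47 ± 2.97 with guide RNA plus Cas9 and 13.6 ± 1.52 and 9.94 ± 2.79 with guide RNA alone (SD, n = 5 each). stat1b, a low-abundance signal transducer gene, did not overlap, with 16.5, 18.4, 13.1, 14.0 and 21.8 in S11 to S15, against 11.2, 11.7, 10.4, 8.02 and 11 in S6 to S10. Its log2 fold change was 0.62 ± 0.23 (SE) and it was not called, while the paralog stat1a was at -0.06 ± 0.10. gh1 and stat1b were the 2 list members other than ncapg2 whose groups did not overlap, among 1054 tested. Over all genes a similar share did not overlap, 50 of 21590 (0.232%), so the count does not set the list members apart.

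Ribosomal protein and mitochondrially encoded genes were mostly slightly negative, and none was called. Of 70 ribosomal protein genes 64 had a negative log2 fold change, with a median of -0.02 and a range from -0.07 for rpl27 to 0.03 for rpl19, and 69 intervals lay within 25%. Of 13 mitochondrially encoded genes 12 were negative with a median of -0.04. Both medians were 0.00 with some single library left out, S11 for the ribosomal and S7 for the mitochondrial genes. The ribosomal score was higher with Cas9 in 3 of 5 pairs, with pair differences from -0.19 to 0.17. For the mitochondrial score this held in 2 of 5 pairs, with differences from -0.10 to 0.07. The counts of negative genes thus do not stand for a fall in every pair, and the genes are not separate observations. Immediate early genes had a median of -0.05 over 33 with 8 positive, and circadian clock genes a median of 0.01 over 31 with 17 positive, again with no call.

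Some programs varied with the column position of a library in both groups. The heat shock score was 0.47, 0.09, -0.15, -0.18 and -0.16 in S11 to S15, against 0.42, 0.00, -0.23, -0.15 and -0.11 in S6 to S10. S11 and S6 were thus both high, and the score of the stress response list, 0.35 in S11 and 0.31 in S6, and that of the erythroid list, 0.39 in S11 and 0.30 in S6, behaved alike. hsp90aa1.1, an inducible chaperone gene, had 1226 in S11 and 1118 in S6, and between 593 and 857 in the other Cas9 libraries against 604 to 796 in the other guide libraries.

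The paired fit gave narrower intervals for genes of this kind. For hbbe1.1, an embryonic globin gene, the interval was 0.61-fold to 1.61-fold unpaired and 0.91-fold to 1.082-fold paired. For cdh17, a kidney tubule gene, it was 0.36-fold to 2.76-fold unpaired and 0.89-fold to 1.13-fold paired. The heart gene myl7 had 0.63-fold to 1.46-fold unpaired and 0.86-fold to 1.06-fold paired. None of the heat shock, stress response, erythroid, heart and trunk organ genes was called in either fit.

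Yolk and liver genes could not be limited by either fit. apoa1a, an apolipoprotein gene of the yolk cell and liver, had 4592, 3666, 2524, 9.97 and 246 in S11 to S15, against 6775, 893, 31.1, 198 and 475 in S6 to S10. Libraries of both groups spanned a very wide range, and the groups overlapped over nearly the whole range. The interval of apoa1a reached from 0.06-fold to 36.3-fold, and 3 of the 33 genes had an interval within 2-fold. The list's median log2 fold change of -0.13 lay between -0.68 without S11 and 0.71 without S14, and it turned to 0.30 in edgeR and in DESeq2 on the recovered reads, so it has no settled direction. he1a, a hatching enzyme gene, similarly had 18.4 to 325 with guide RNA plus Cas9 and 8.41 to 287 with guide RNA alone.

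**Figure D4:**
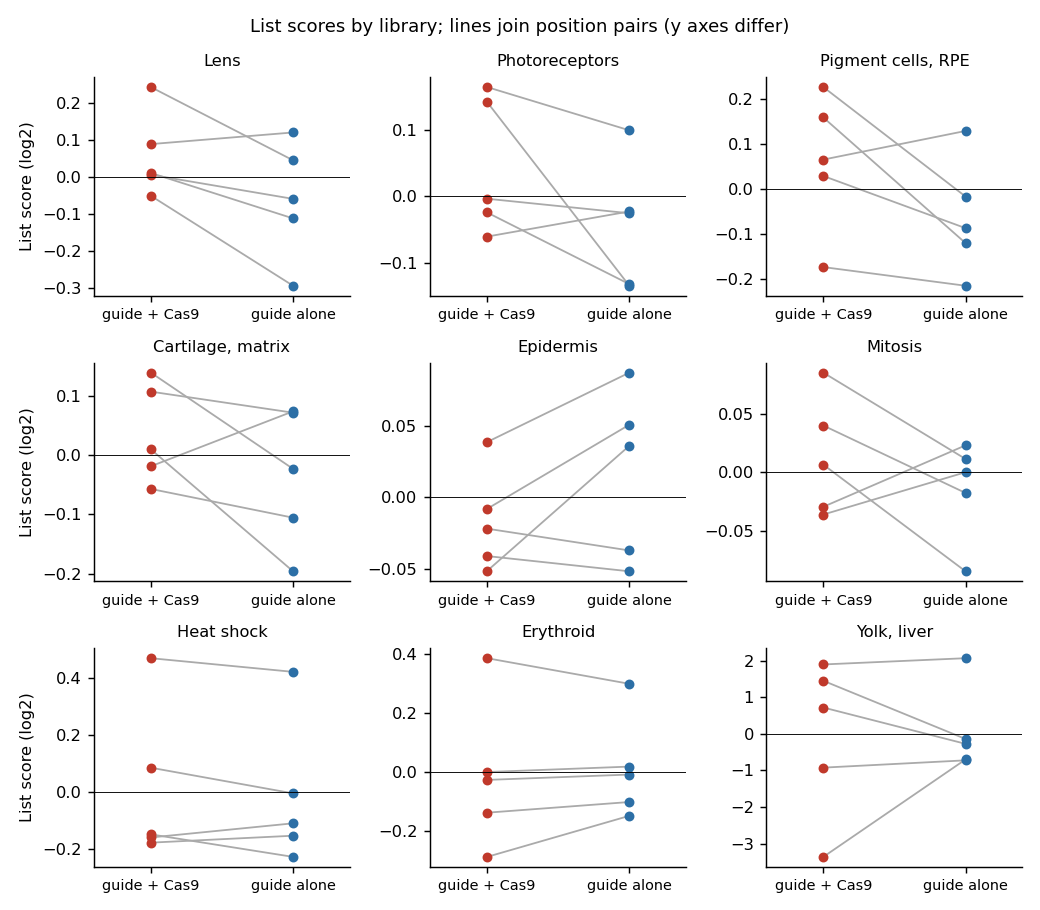
Score of 9 gene lists in each library (log2, mean over genes relative to the mean over the 10 libraries), guide RNA plus Cas9 in red at the left and guide RNA alone in blue at the right; lines join libraries at the same column position, and the vertical scales differ. Heat shock and erythroid scores run level along the lines with S11 and S6 highest, lens scores overlap between -0.05 and 0.24 with Cas9 and between -0.29 and 0.12 with the guide alone, and yolk and liver scores span from -3.36 to 2.06.

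Across all genes, 38 had non-overlapping groups at a mean of at least 50, 17 with Cas9 higher and 21 with Cas9 lower, 7 of them with clone-style names. With those 7 left out of the ranking, the 5 largest positive values were those of rxrgb, a retinoid X receptor gene, at 0.30 ± 0.08 (SE), cyr61l2, of the CCN family of matrix-associated proteins, at 0.25 ± 0.09, pigs, which acts in GPI anchor attachment, at 0.24 ± 0.08, fbxo30b, an F-box protein gene, at 0.20 ± 0.06, and igfbp3, which encodes a binding protein of insulin-like growth factors, at 0.18 ± 0.06. rxrgb had 522, 470, 578, 536 and 503 in S11 to S15, against 399, 432, 461, 466 and 369 in S6 to S10.

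Likewise without clone-style names, and besides ncapg2, the largest negative values were those of rimbp2, a presynaptic scaffold gene, at -0.29 ± 0.13 (SE), entpd2a.2, an ectonucleotidase gene, at -0.28 ± 0.09, ssna1, which encodes a microtubule-associated protein of centrosomes and cilia, at -0.24 ± 0.09, and gh1. entpd2a.2 had 103, 109, 110, 119 and 117 in S11 to S15, against 147, 126, 122, 148 and 137 in S6 to S10. None of these 9 genes was called in either fit, and the authors' deposited table gives each an adjusted p of 0.99998. In the unpaired limma fit the smallest p after ncapg2 belonged to si:dkey-204l11.1 (ENSDARG00000079403), a clone-style name given here after its values were seen. Its fold change exceeded those of the 5 genes above. It had 130, 150, 133, 92.7 and 129 in S11 to S15, against 60.7, 71.4, 74.4, 91.2 and 84.4 in S6 to S10, with S14 and S9 nearly level and no overlap, and its log2 fold change was 0.72 ± 0.15. The authors' deposited table gives it an adjusted p of 0.27.

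The size of change that the 10 libraries could still hold was read from the intervals of all genes. The distance from the estimate to either end of the 95% interval had a median of 0.20 (log2), or 1.15-fold, unpaired and of 0.13, or 1.096-fold, paired. Intervals lay within 25% for 64.9% of all genes, within 1.5-fold for 85.6% and within 2-fold for 95.03%, and in the paired fit for 77.6%, 90.9% and 98.0%. The limits depended on abundance, since the median distance was 0.46 in the 5398 least abundant genes, with means up to 160, and 0.15 in the 5398 most abundant. Estimates themselves went beyond 25% for 621 genes (2.88%), beyond 1.5-fold for 98 and beyond 2-fold for 12.

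Over the 1054 different list genes, 540 had a positive log2 fold change and 514 a negative one. Intervals lay within 25% for 688, within 1.5-fold for 910 and within 2-fold for 997, and in the paired fit for 868, 977 and 1016. Of the 41 list medians 35 were within 0.05 of 0 and 38 within 0.1, and the 3 beyond were lens, pigment cells, and yolk and liver, the last with a positive median in edgeR and DESeq2. Leaving out single libraries changed the sign of 26 medians and kept that of 15, and those kept include lens, photoreceptor, retina, pigment cells, cartilage, mitosis, epidermis and ionocytes.

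**Figure D5:**
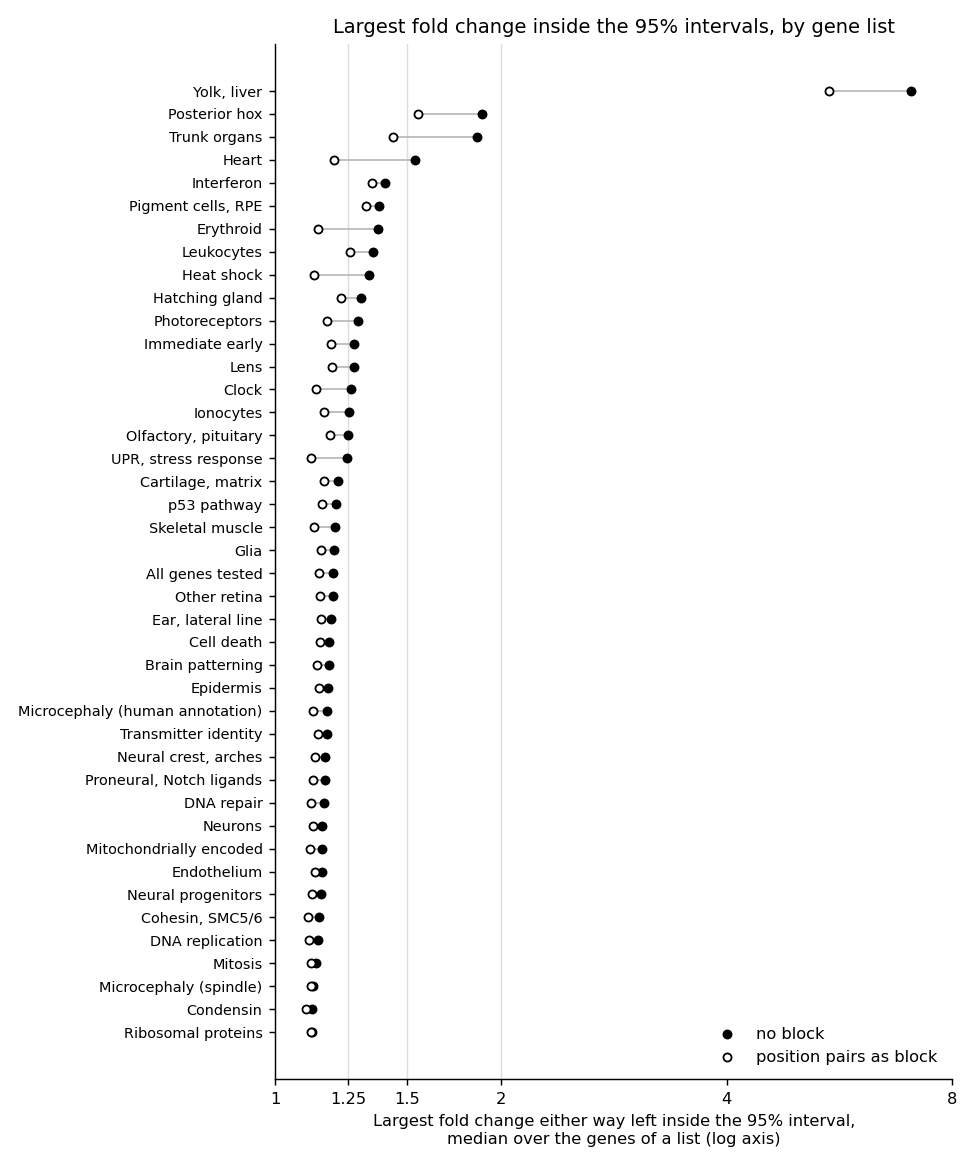
Largest fold change in either direction that lies inside a gene's 95% interval, as the median over the genes of each list (log axis), unpaired (filled) and with column pairs as block (open). Condensin, ribosomal protein and mitosis genes are limited near 1.1-fold, all genes tested at 1.19-fold unpaired and 1.14-fold paired, and yolk and liver genes at 7.05-fold unpaired and 5.47-fold paired.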

How the data were processed

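Polyadenylated RNA of embryo heads was sequenced as 50 bp single-end reads from a stranded kit, per the labels' protocols. The submitters' processing notes name DESeq2, HTSeq, STAR, cutadapt, Trim Galore and bcl2fastq. Versions, the genome build and any use of strand in counting were not given in the sources used here. The authors deposited, per gene and library, a normalized signal (count divided by a size factor), and for each comparison deposited log2 fold changes, a score (the test statistic) and p-values. The group of a column follows from the pair of comparison tables that hold it, and its replicate number is not given in the headings.

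Dividing each library by its step gave whole reads for 100% of values (tolerance 0.001 of a read). The main test was limma 3.58.1 in R 4.3.3 (trend, robust) on log2(value + 1) for genes that reached 10 in 5 or more of the 10 libraries, with Benjamini-Hochberg adjustment. The scale understates changes of low genes. Alternatives were edgeR 4.0.16 and DESeq2 1.42.0 on the recovered reads, each of which called 1 gene, TMM rescaling, pseudocounts of 0.5 and 5, no filter and a filter of 50, all 3 groups in 1 fit, non-robust moderation, each library left out, and column pairs as block. Deviations from the group means correlated between same-position libraries at 0.79, 0.48, 0.45, 0.51 and 0.62, and in each case this was the library's best match. The pairing was set for this comparison by column order and does not come from the labels. The comparison was itself chosen with earlier results of these data known. Whether the paired intervals are too narrow was not tested. Steps were checked on simulated data that held no effect of column position. The check therefore does not bear on how far the paired and unpaired fits can be trusted here.

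Gene lists and the comparison itself were chosen with earlier results of these data known, and the list of human microcephaly phenotypes was added after the files were seen. Of 1133 list entries, 1076 different genes matched by name or by RefSeq (GRCz12tu) synonyms, and 1054 passed the filter. Genes to name were drawn from ncapg2, fixed anchors, the 2 smallest unpaired p-values of each list, genes called in either fit, and the 5 largest rises and falls among non-overlapping genes with a mean of 50 or more, leaving out clone-style names (such as si: or zgc:); list extremes were named after their values were seen. Values of some listed genes are not reported here. Genes that share reads with near-identical copies are uncertain, and so are overlapping antisense genes. Reads are not independent molecules, so depth speaks to counting error only.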

Additional observations from a re-analysis of the deposited data

Results flagged for a closer look

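A few libraries stood apart from the other 4 of their group by a gap test on the highest and lowest value, which by chance marks about 1 in 20 groups. For rhcgl1, S11 had 412.2 where the next Cas9 library had 96.8, and S6 had 866.8 where the next guide library had 206. The ionocyte score was 0.1644 in S11, with the next Cas9 library at -0.06. The yolk and liver score was 2.064 in S6, with the next guide library at -0.14. The endothelial score was 0.08849 in S12, with the next Cas9 library at -0.01. For rimbp2, S8 had 63.99 where the next guide library had 55.2. S11 and S6, which share a column position, account for 4 of these 6 values. These are not separate observations, since rhcgl1 is itself a member of the ionocyte list. List scores and genes were screened in both groups, so some marks by chance are to be expected, and a link to column position was not tested.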

How the results depend on the processing

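With the column pairs as replicate block, limma called 3 genes in place of 1 and listed 983 genes at an unadjusted p under 0.05 in place of 198. The block changed no other call. Without single libraries, 1 gene was called in each case, and between 119 (without S13) and 340 genes (without S8) had an unadjusted p under 0.05. Within the block fit, leaving out a pair gave between 1 call (without S11 and S6, or S13 and S8) and 6 (without S12 and S7), and the cause was not tested. The share of genes with an interval within 1.5-fold lay between 83.2% and 84.7% without single libraries. The fold change of ncapg2 lay between -1.15 and -1.05 without single libraries and kept its call under every alternative run. No list median moved by more than the spread between libraries (pooled SD of the list score) under any alternative (819 values). That of yolk and liver was nevertheless 0.30 in edgeR and DESeq2 and -0.13 in limma. The spread exceeded the size of the median itself in every list but glia, so this comparison could not detect small shifts. Examples are lens (0.14 beside 0.12), photoreceptors (0.10 beside 0.08), cartilage (0.10 beside 0.08) and yolk and liver (1.72). Leaving out single libraries changed the sign of 26 of the 41 medians. Nor did any of the 4173 values of 207 single genes move by more than the gene's spread, apart from the block calls of rhcgl1 and zgc:165423 described above. For most settings this outcome was fixed in advance. Leaving out 1 of 5 libraries cannot shift a gene's fold change by more than that spread. The block, the filters, the fit of all 3 groups and non-robust moderation leave the fold change as it is. The count therefore does not speak for stability. Of the 5398 least abundant genes, 49.7% had an interval within 1.5-fold.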
